A study of Mus musculus with 2 samples.

Results

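The genes described here encode the alpha chains of collagen. They were chosen by symbol alone, as every gene named Col, a type number, the letter a and a chain number, a rule that uses no measured value, although the set was proposed with earlier results of these data known. There are 44 such genes among the 32285 genes counted. By textbook class, 11 encode fibrillar chains, 9 network-forming chains of types 4, 8 and 10, 6 beaded-filament chains of type 6, 9 FACIT chains that attach to fibrils, 6 transmembrane or multiplexin chains, and 3 other chains (Col7a1, Col26a1 and Col28a1). All 44 were found in the mouse annotation, on 15 chromosomes.

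Collagen chains wind around each other into a triple helix in the endoplasmic reticulum, where prolines and lysines are hydroxylated, and are then secreted, trimmed and crosslinked. Fibrillar chains such as those of types 1 and 3 build the interstitial matrix that accumulates in kidney fibrosis. Type IV chains form the sheets of basement membranes, in which the chains of Col4a1 and Col4a2 are found in nearly all tissues, and those of Col4a3, Col4a4 and Col4a5 form the network of the mature glomerular basement membrane, made by podocytes.

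The data are single-nucleus RNA counts from frozen mouse kidney, from 1 sham library and 1 library after 5/6 nephrectomy. The nephrectomy mice were male, labelled T1+/+, and 11 weeks old at surgery. The right kidney was taken out, both poles of the left kidney were tied off 1 week later, and tissue was collected 4 weeks after surgery. The sham control had both flanks cut, the kidneys exposed and the wounds closed; its genotype, sex and age are not listed separately, and the labels do not say how many animals or which part of the kidney each library holds. With 1 library per group there is no test across animals: every interval below is a 95% interval that covers counting error only, and "higher" and "lower" compare these 2 libraries.

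After filtering, 2833 sham and 3046 nephrectomy nuclei were used, with 18871167 and 24933526 unique molecular identifiers (UMIs) and medians of 5166 and 6900 UMIs per nucleus. The libraries shared 2 barcodes. Nuclei were clustered without collagen genes and named from marker genes, so a name means nuclei like that type, and the 9 classes that held 30 or more nuclei of both libraries were compared. The 3 clusters with a median depth under 1/3 of their library, holding 765 sham and 585 nephrectomy nuclei, stayed unnamed. Levels are UMIs per 1000000 UMIs of the library or class (CPM) and are compared only within a gene. A gene was counted as measured where both libraries together held 20 UMIs or more. It was called higher where its nephrectomy level was 1.5 times the sham level or more, and lower where the reverse held.

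The type IV genes lie in head-to-head pairs, which is why the stretches between or before their starts are shown here. On GRCm38, Col4a1 and Col4a2 start on opposite strands of chromosome 8 and overlap by 22 bases. On chromosome 1, 71 bases separate the starts of Col4a4 and Col4a3 (chr1:82586850-82586920, plus strand, reading toward Col4a3). On chromosome X, 1308 bases separate the starts of Col4a6 and Col4a5. The upstream stretches shown are chrX:141475169-141475384 (plus strand) for Col4a5 and chrX:141474077-141474326 (minus strand) for Col4a6. Those of Col6a6 (chr9:105828161-105828335, minus strand) and Col19a1 (chr1:24587473-24587687, minus strand) are added because these genes had the lowest ratios of all members. The sequences are from RefSeq promoter windows of GRCm38.p6, 5′ to 3′, trimmed to bases outside every annotated exon. Capitals mark GGGCGG or CCAAT on either strand.
between Col4a4 and Col4a3: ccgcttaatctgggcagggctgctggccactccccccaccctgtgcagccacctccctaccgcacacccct
Col4a5: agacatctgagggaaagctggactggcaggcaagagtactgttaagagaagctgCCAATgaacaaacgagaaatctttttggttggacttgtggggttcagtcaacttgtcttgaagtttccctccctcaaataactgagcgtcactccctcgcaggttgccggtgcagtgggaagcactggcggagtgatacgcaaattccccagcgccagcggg
Col4a6: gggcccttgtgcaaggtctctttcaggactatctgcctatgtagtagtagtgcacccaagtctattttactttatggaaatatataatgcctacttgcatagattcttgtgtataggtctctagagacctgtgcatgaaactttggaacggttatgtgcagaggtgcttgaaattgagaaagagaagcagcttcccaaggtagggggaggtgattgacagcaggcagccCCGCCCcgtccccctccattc
Col6a6: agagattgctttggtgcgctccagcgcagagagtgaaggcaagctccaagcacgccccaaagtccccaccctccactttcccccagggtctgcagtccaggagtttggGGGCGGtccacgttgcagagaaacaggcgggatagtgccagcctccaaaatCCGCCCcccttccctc
Col19a1: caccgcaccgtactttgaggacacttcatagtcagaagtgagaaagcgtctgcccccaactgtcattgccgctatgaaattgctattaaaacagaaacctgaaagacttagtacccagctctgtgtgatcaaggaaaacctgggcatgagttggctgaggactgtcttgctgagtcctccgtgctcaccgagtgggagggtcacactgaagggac

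The stretch between Col4a4 and Col4a3 and the one before Col19a1 held neither motif, the Col4a5 stretch held 1 CCAAT, the Col4a6 stretch 1 GGGCGG and the Col6a6 stretch 2. Windows from 250 bases before to 50 after the start were found for 35 of the 44 members. GGGCGG was in 22 of those 35 windows (62.9%), against 35.9% of all 27025 windows. CCAAT was in 34.3% of the members' windows against 37.9%, and TATAAA in 14.3% against 14.2%. The motifs were searched on both strands and could overlap, and a match describes letters, not a bound site.

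Over all nuclei, 32 of the 44 members were measured and 12 were not, among them Col2a1, Col10a1 and all 3 chains of type 9. Collagen UMIs summed to 2036 CPM in sham and 2370 CPM in nephrectomy. Of the 32 measured members, 3 were higher in nephrectomy, where 9.51% of all 17343 measured genes were, and 6 were lower, where 10.7% of all measured genes were. The 3 higher members lie close to the background share. In these sums, more nuclei of a class and more RNA per nucleus cannot be told apart. The median log2 ratio of the 32 members was 0.24, and that of all measured genes 0.02.

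**Figure D1:**
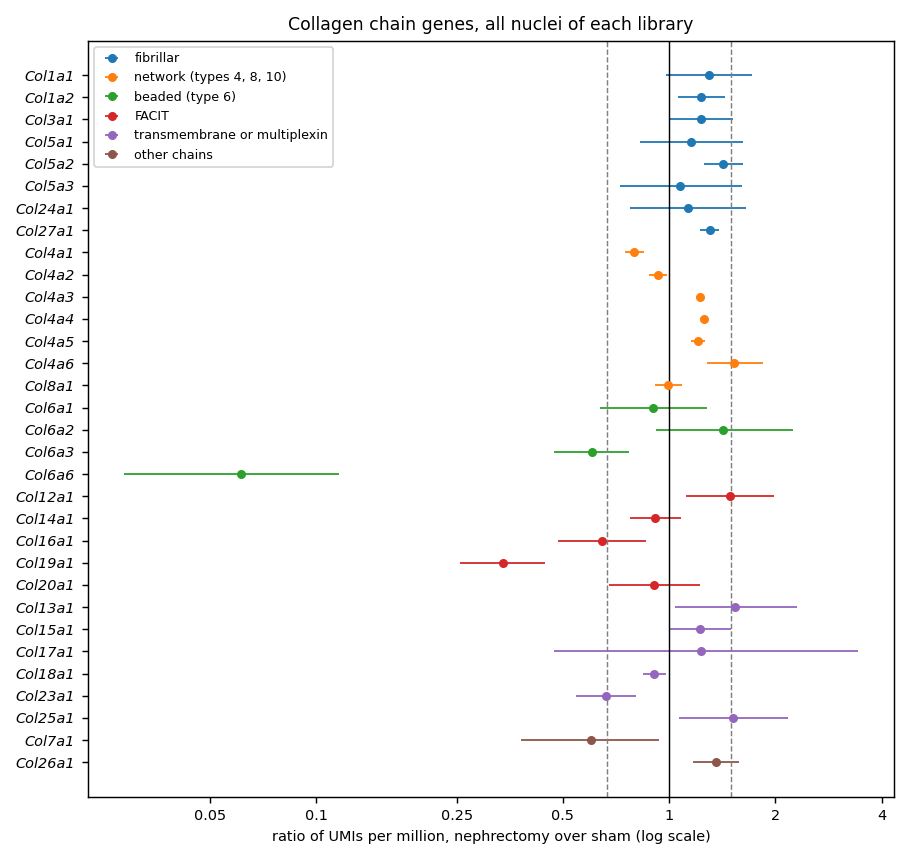
Ratio of nephrectomy to sham CPM over all nuclei for the 32 measured members, coloured by class, on a log axis; bars are exact 95% intervals for counting error, dashed lines mark 1.5-fold. All 8 fibrillar points lie above 1 and within 1.5-fold, and Col6a6 and Col19a1 lie farthest to the left.

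The fibrillar chains shifted little over the whole libraries. All 8 measured members had a ratio above 1 and none reached 1.5, with a median log2 ratio of 0.30. Col1a1, a chain of type 1 collagen, had 83 UMIs in sham and 142 in nephrectomy (4.40 and 5.70 CPM, ratio 1.29, interval 0.981 to 1.72). Col3a1, the chain of type 3 collagen, had 152 and 247 UMIs, a ratio of 1.23. The farthest from 1 was Col5a2, a type 5 chain that helps to set fibril diameter, with 368 and 693 UMIs and a ratio of 1.43 (interval 1.25 to 1.62).

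In the network class, the 3 chains of the mature glomerular basement membrane moved by similar amounts over all nuclei. Col4a3 had 14141 UMIs in sham and 22864 in nephrectomy, a ratio of 1.22. Col4a4 had a ratio of 1.25 and Col4a5 of 1.21. The broadly expressed chains did not share this direction. Col4a1 was at 113 CPM in sham and 90.2 CPM in nephrectomy (ratio 0.797, interval 0.751 to 0.846), and Col4a2 had a ratio of 0.929. Col4a6, a chain of some epithelial basement membranes, was the 1 network member past 1.5-fold, with 180 and 364 UMIs and a ratio of 1.53 (interval 1.28 to 1.84).

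Among the 6 lower members, 4 were beaded or FACIT chains, classes that hold 6 and 9 of the 44 genes. Col6a6, a long chain of type 6 collagen, had 124 UMIs in sham and 10 in nephrectomy (6.57 and 0.401 CPM), a ratio of 0.061 (interval 0.0286 to 0.116). Col19a1, a FACIT chain, had 170 and 76 UMIs and a ratio of 0.338 (interval 0.255 to 0.446). Col6a3, another type 6 chain, had a ratio of 0.605, and Col16a1, a FACIT chain, of 0.645. The other 2 lower members were Col7a1, the chain of anchoring fibrils, with a ratio of 0.599, and Col23a1, a transmembrane chain, with 0.662. The transmembrane chains Col13a1 and Col25a1 were higher, with ratios of 1.53 and 1.51 and intervals that start at 1.04 and 1.07. None of the 3 higher members passed 1.5-fold with doublets kept, where Col4a6 was at 1.48, Col13a1 at 1.24 and Col25a1 at 0.995; Col25a1 was also below 1 with nuclei thinned to 1000 UMIs (0.908). Col4a6 was at 1.36 with equal weight per nucleus, and Col13a1 at 1.32 with thinning. Of the 6 lower members, Col19a1 was at 0.531 with equal weight per nucleus and 0.499 with thinning, and Col6a6 at 0.085 and 0.0648. Thinning put the other 4 inside 1.5-fold, Col6a3 at 0.825, Col7a1 at 0.756 and Col23a1 at 0.908, and turned the direction of Col16a1 (1.12).

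Across the 9 classes, 110 of the 396 pairs of member and class were measured, 19 were higher and 12 were lower. Of all genes measured in a class, 8.78% to 20.5% were higher and 11.6% to 16.8% were lower, depending on the class. No level of free RNA was estimated, so low counts in one class of a chain abundant in another cannot be told apart from RNA of other cells. The type IV chains divided the classes. Col4a1 was highest in fibroblast-like nuclei in both libraries (952 and 836 CPM), next in blood endothelial-like nuclei (468 and 331 CPM), with intervals that did not overlap, and lowest in podocyte-like nuclei, with 2 and 7 UMIs. Col4a2 had the same first, second and last class, with 673 and 585 CPM in fibroblast-like nuclei and 0 and 1 UMIs in podocyte-like nuclei; a count of 0 there allows up to 14.1 CPM by the exact Poisson limit.

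Col4a3 ran the other way. It was highest in podocyte-like nuclei, at 2844 CPM in sham and 3557 CPM in nephrectomy, and lowest in fibroblast-like nuclei, at 115 and 140 CPM. Col4a4 was also highest in podocyte-like nuclei (1559 and 1930 CPM), and next in distal convoluted or connecting tubule-like nuclei (1093 and 1113 CPM), where the nephrectomy interval overlapped that of principal-like nuclei. Col4a5 was highest in podocyte-like nuclei (637 and 545 CPM) and lowest in fibroblast-like nuclei, with 2 and 9 UMIs. Its partner Col4a6 had its highest level in the same class in both libraries, but in sham its interval there overlapped that of principal-like nuclei.

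**Figure D2:**
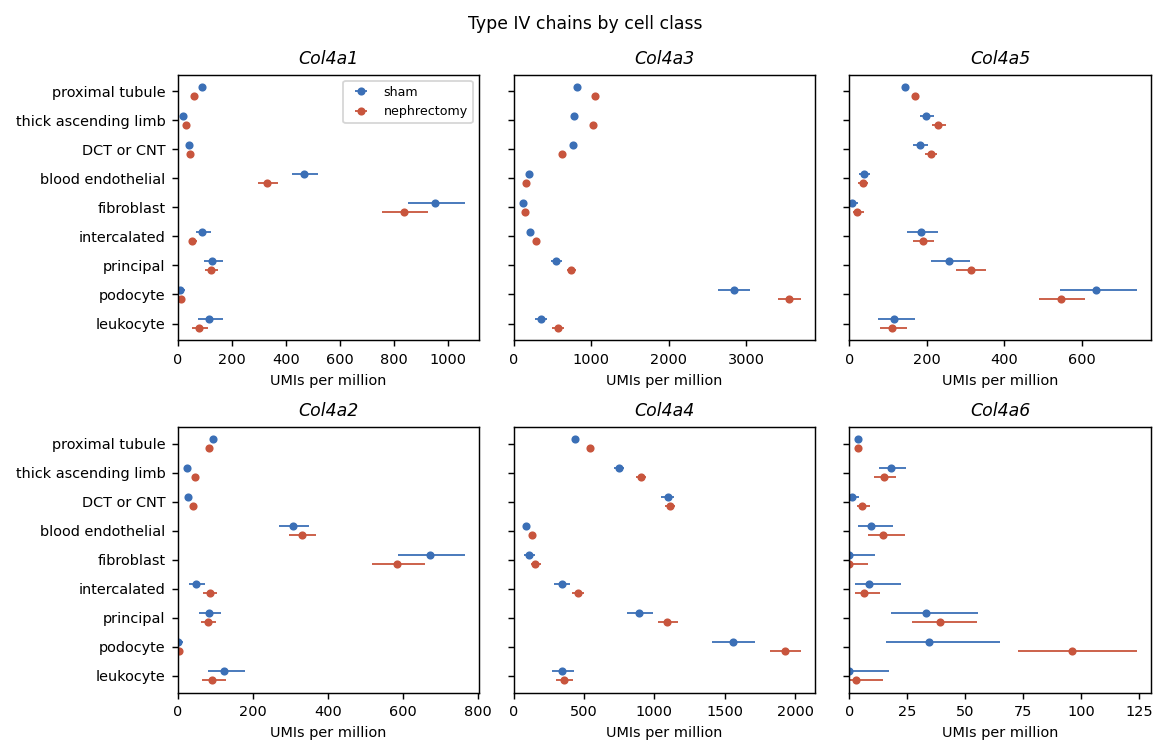
CPM of the 6 type IV chains in the 9 compared classes (DCT or CNT: distal convoluted or connecting tubule), sham in blue and nephrectomy in red, each panel on its own scale; bars are exact 95% Poisson intervals. Col4a1 and Col4a2 peak in fibroblast-like nuclei, and Col4a3, Col4a4 and Col4a5 in podocyte-like nuclei.

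Most interstitial chains were concentrated in 1 class. Fibroblast-like nuclei had the highest level in both libraries of Col1a1 (120 and 153 CPM), Col1a2 (438 and 484 CPM), Col3a1 (235 and 323 CPM) and Col5a1 (115 and 140 CPM), each with an interval apart from that of the next class. Col5a2 was different: its level in fibroblast-like nuclei (99.9 and 187 CPM) overlapped that in thick ascending limb-like nuclei (88.2 and 139 CPM). The type 6 chains Col6a1 and Col6a3 and the FACIT chain Col14a1, which binds to fibril surfaces, were also highest in fibroblast-like nuclei, Col14a1 at 476 and 460 CPM.

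Other members were highest elsewhere. Col13a1, a transmembrane chain, was highest in blood endothelial-like nuclei (40.2 and 63.4 CPM) and Col26a1 in principal-like nuclei. Col27a1, a fibrillar chain by sequence, was highest in proximal tubule-like nuclei (125 and 178 CPM), with an interval that overlapped the next class in sham only. Col24a1 was highest in intercalated-like nuclei (12.9 and 30.3 CPM). The sham level there rested on 6 UMIs, and its interval overlapped that of blood endothelial-like nuclei. In intercalated-like nuclei the Col24a1 ratio was 2.35, with an interval that spans 1 (0.961 to 6.89). Col15a1 was highest in fibroblast-like nuclei and next in blood endothelial-like nuclei (76.5 and 78.7 CPM, ratio 1.03). The top class of Col18a1 and of Col8a1 was not the same in both libraries. For Col8a1 in sham it was leukocyte-like nuclei (151 CPM), where all 33 UMIs lay in 1 nucleus. In proximal tubule-like nuclei, Col8a1, a short network-forming chain, had 806 and 1062 UMIs and a ratio of 1.07.

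Podocyte-like nuclei (45 sham, 78 nephrectomy) had 1 of 6 measured members higher, against 16.5% of all genes measured in that class. This was Col4a6, with 9 and 58 UMIs (34.3 and 95.8 CPM, ratio 2.79, interval 1.37 to 6.41), the highest single nucleus holding 8 of the 58. Col4a3 and Col4a4 had ratios of 1.25 and 1.24, while Col4a5 was at 0.856 (interval 0.709 to 1.04). None of the 6 was called lower, against 13.5% of all genes. Col1a2, a type 1 chain, had 35 and 74 UMIs in these nuclei (133 and 122 CPM), while Col1a1 had 1 UMI in each library.

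In thick ascending limb-like nuclei (335 sham, 334 nephrectomy), 4 of 11 measured members were higher, against 9.13% of all genes, and 0 were lower, against 11.7%. Col4a2 had 53 and 122 UMIs (23.2 and 44.8 CPM), a ratio of 1.93 (interval 1.39 to 2.71). Col5a2 had 201 and 378 UMIs and a ratio of 1.57 (interval 1.32 to 1.88), which was 1.42 with thinning. It was found in 13.1% of sham and 13.8% of nephrectomy nuclei, with up to 34 and 47 UMIs in 1 nucleus. Col4a1 had 45 and 86 UMIs and a ratio of 1.60 (interval 1.10 to 2.35). That call rests on how clusters were divided. With parts of 20 nuclei split off, the rule used first, the Col4a1 ratio was 1.28, under the 1.5-fold line. After that minimum was raised to 30 nuclei, with the ratios already seen, it was 1.60, as it was with no cluster split. Col27a1, a fibrillar chain, had 8 and 19 UMIs and an interval that spans 1. At 1000 UMIs per nucleus Col4a1 and Col4a2 were left with 9 and 11 UMIs in sham and 7 and 9 in nephrectomy, and both ratios lay below 1 (0.785 and 0.826).

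Distal convoluted or connecting tubule-like nuclei had 2 of 12 measured members higher (8.78% of all genes) and 1 lower (13.3%). Col4a2 had 47 and 137 UMIs and a ratio of 1.55 (interval 1.10 to 2.20), which was 1.41 with equal weight per nucleus. Col4a6 had 2 and 19 UMIs, a ratio of 5.04 with an interval of 1.22 to 44.7, and at the other cluster resolutions its ratio was 0.366, so no direction is given for it. In intercalated-like nuclei, 3 of 9 were higher (14.4%) and 1 was lower (13.2%). Col4a1 was the lower one, with 42 and 53 UMIs and a ratio of 0.592 (interval 0.387 to 0.910), which was 0.826 with equal weight per nucleus. Col4a2 had 22 and 84 UMIs and a ratio of 1.79, with 30 of the 84 in 1 nucleus. Without the top nucleus of each library that ratio was 1.49, and thinning left 2 UMIs in each library and a ratio of 0.722. Col25a1 had 3 and 38 UMIs there, a ratio of 5.94 (interval 1.89 to 30.1). All 3 sham UMIs lay in 1 nucleus, and 20 of the 38 in 1 nucleus. Without the top nucleus of each library no sham UMI was left. Against an assumed floor of 3 sham UMIs the ratio was 2.80, which is not a lower limit. Thinning left 0 UMIs in both libraries.

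Principal-like nuclei, the water-reabsorbing cells of the collecting duct, had 0 of 9 measured members higher (17.4% of all genes) and 1 lower (14.2%). Col18a1, a basement membrane multiplexin whose end fragment is endostatin, had 126 and 111 UMIs (297 and 132 CPM), a ratio of 0.444 (interval 0.341 to 0.578). The share of nuclei with a Col18a1 UMI was 61.8% and 64.3%, at median depths of 4915 and 8148 UMIs. Thinning left 16 and 12 UMIs and a ratio of 0.677, inside 1.5-fold. Col26a1 was highest in this class in both libraries, with 203 and 360 UMIs (478 and 428 CPM, ratio 0.894). In blood endothelial-like nuclei 2 of 10 were higher (10.3%) and 0 lower (12.1%). Col13a1 had 31 and 62 UMIs there (ratio 1.58, interval 1.01 to 2.51), but 0.904 with doublets kept, and Col4a1 had a ratio of 0.708. Leukocyte-like nuclei had 1 of 11 higher (20.5%) and 3 lower (16.8%); Col8a1 was among these, and all 33 of its sham UMIs lay in 1 nucleus, while 65 of the 218 nephrectomy UMIs of Col4a3, the higher one, lay in 1 nucleus. The Col4a3 ratio there was 1.65, and 1.04 with equal weight per nucleus; its levels of 347 and 573 CPM lie below those in proximal tubule-like nuclei, 812 and 1047 CPM, and the part of free RNA in them was not tested.

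Fibroblast-like nuclei (77 sham, 87 nephrectomy) held 49.4% of the sham and 50% of the nephrectomy UMIs of Col1a1. Of 20 measured members, 4 were higher, against 13.6% of all genes in the class, and 0 were lower, against 15.6%. Col12a1, a FACIT chain, had 7 and 33 UMIs (20.6 and 71.0 CPM), a ratio of 3.45 (interval 1.5 to 9.24), with 11 of the 33 in 1 nucleus. Col5a2 had 34 and 87 UMIs (99.9 and 187 CPM), a ratio of 1.87 (interval 1.25 to 2.87), with 22 of the 87 in 1 nucleus. Col15a1, a multiplexin of basement membrane zones, had 47 and 110 UMIs and a ratio of 1.71 (interval 1.21 to 2.46), which was 1.36 at Leiden resolution 2. Col16a1 was at 1.55 with an interval that spans 1. The chains of types 1 and 3 stayed within 1.5-fold: Col1a1 at 1.27, Col1a2 at 1.10 and Col3a1 at 1.37 (interval 1.04 to 1.82). Col6a3 was at 0.700 (interval 0.517 to 0.948) and Col18a1 at 1.36 (interval 1.04 to 1.79).

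Thinning to 1000 UMIs per nucleus left 8 UMIs of Col5a2 in each library and turned its ratio to 0.885, so its direction in fibroblast-like nuclei changed with that setting. A larger difference in the type 1 and 3 chains lay in 1 unnamed cluster, called low-depth cluster 3 here (166 sham and 124 nephrectomy nuclei, median 1348 and 902.5 UMIs). Its leading genes mix stromal genes with others, and it was given no cell type. Col1a1 had 21 and 33 UMIs there (37.4 and 178 CPM, ratio 4.77, interval 2.68 to 8.68), Col1a2 35 and 61 (ratio 5.29), Col3a1 30 and 47 (ratio 4.76) and Col15a1 16 and 21 (ratio 3.98). The levels are relative to all UMIs of the cluster, 561698 in sham and 185046 in nephrectomy. The deepest nucleus held 42685 of the sham UMIs and 15576 of the nephrectomy UMIs. Col1a1 was found in 10.2% of sham and 16.9% of nephrectomy nuclei, Col1a2 in 13.9% and 29.0%, and Col3a1 in 13.3% and 16.9%. Thinning kept 107 sham and 47 nephrectomy nuclei, in which Col1a1 was at 46.7 and 106 CPM (5 UMIs in each library), Col1a2 at 103 and 362 CPM and Col3a1 at 74.8 and 277 CPM. Col15a1 turned direction there, with 7 UMIs in sham and 1 in nephrectomy. In the same nuclei the 11 fibroblast markers summed to 1912 CPM in sham and 3259 CPM in nephrectomy, and the 10 proximal tubule markers to 9687 and 5831 CPM. Markers of injured proximal tubule were at 682 and 2275 CPM, of pericytes, smooth muscle or mesangium at 372 and 865 CPM, of mononuclear phagocytes at 328 and 784 CPM, and of distal convoluted or connecting tubule at 9249 and 3442 CPM. Blood endothelial markers were at 1741 and 2632 CPM, thin limb markers at 465 and 951 CPM. Thick ascending limb markers were at 4891 and 5788 CPM, and podocyte markers at 1563 and 967 CPM. The part of this changed mix in the ratios was not tested. Counting this cluster as fibroblast-like would make 13 members higher in place of 4. It would add 561698 sham and 185046 nephrectomy UMIs to the 340315 and 465088 UMIs of the class. The share of all genes higher in that pooled class is not given here, so the 13 has no background beside it.

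**Figure D3:**
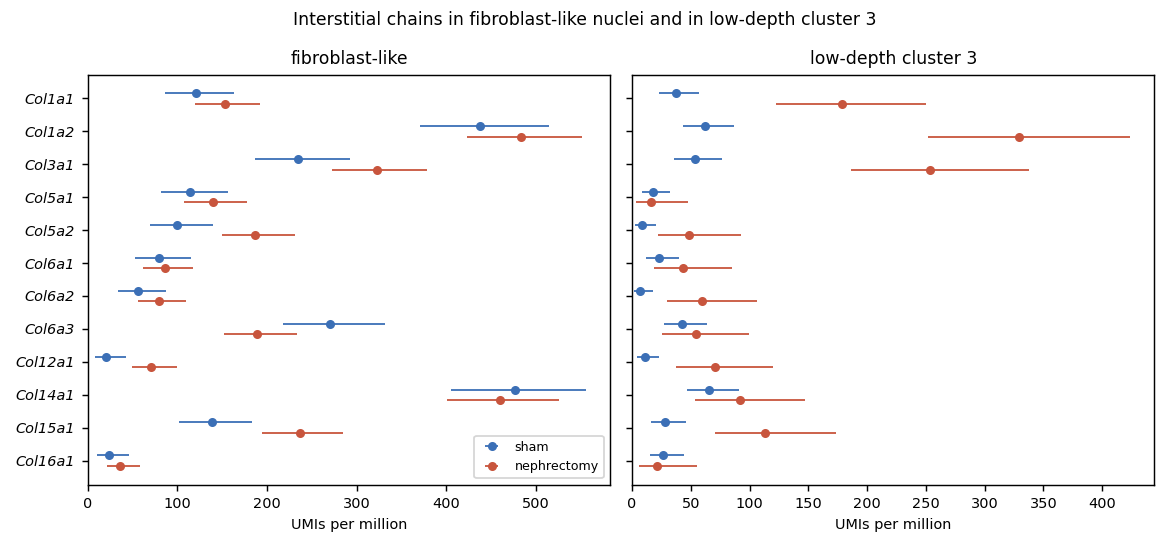
CPM of 12 interstitial chains in fibroblast-like nuclei (left) and low-depth cluster 3 (right), sham in blue and nephrectomy in red, with exact 95% Poisson intervals. Col1a1, Col1a2 and Col3a1 intervals overlap between the libraries on the left and lie apart on the right.

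Proximal tubule-like nuclei (894 sham, 1023 nephrectomy) held 22 of the 110 measured pairs and 6 of the 12 lower ones. Of 22 measured members in this class, 6 were lower, against 11.6% of all genes in the class, and 2 were higher, against 10.8%. Col6a6 had 113 UMIs in sham and 7 in nephrectomy (10.9 and 0.551 CPM), a ratio of 0.0504 (interval 0.0198 to 0.107). It was detected in 6.94% of sham and 0.587% of nephrectomy nuclei, at median depths of 10192 and 11053 UMIs; in thick ascending limb-like nuclei, at medians of 6266 and 7203.5 UMIs, it was in 0 of 335 sham nuclei, which allows up to 1.10% of nuclei with a UMI at that lower depth, and 0.299% of nephrectomy nuclei. Thinned to 1000 UMIs, 8 of 892 sham nuclei and 0 of 1022 nephrectomy nuclei kept a UMI.

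Col19a1 had 145 and 22 UMIs in these nuclei (14.0 and 1.73 CPM), a ratio of 0.124 (interval 0.0751 to 0.194). Col24a1, a fibrillar chain, had 24 and 11 UMIs (ratio 0.373), Col16a1 75 and 58 (ratio 0.630) and Col23a1 178 and 144 (ratio 0.659), each with an interval below 1. With equal weight per nucleus Col16a1 was at 0.741 and Col23a1 at 0.771, and with thinning Col24a1 was at 0.873, all inside 1.5-fold. Col7a1 was at 0.611 with an interval that spans 1, as were the 2 higher members, Col12a1 and Col14a1. Col27a1, with 1292 and 2266 UMIs, had a ratio of 1.43.

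The proximal tubule-like nuclei fell into 5 clusters that the libraries filled unevenly. Cluster 10 had 247 sham and 2 nephrectomy nuclei, cluster 6 had 118 and 19, and cluster 13 had 72 and 466. Over the 3 clusters with at least 50 nuclei of each library, weighted equally, the ratio of Col6a6 was 0.0523 and that of Col19a1 was 0.208. In cluster 4 alone (185 and 158 nuclei), Col6a6 had 52 UMIs in sham and 1 in nephrectomy. Over the same clusters the ratio of Col24a1 was 0.709, of Col23a1 0.795 and of Col27a1 1.06, all within 1.5-fold, while Col16a1 was at 0.633 and Col7a1 at 0.409. Of the sham UMIs of Col24a1, 70.8% lay in cluster 10, and of those of Col23a1, 96.1% in cluster 4.

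**Figure D4:**
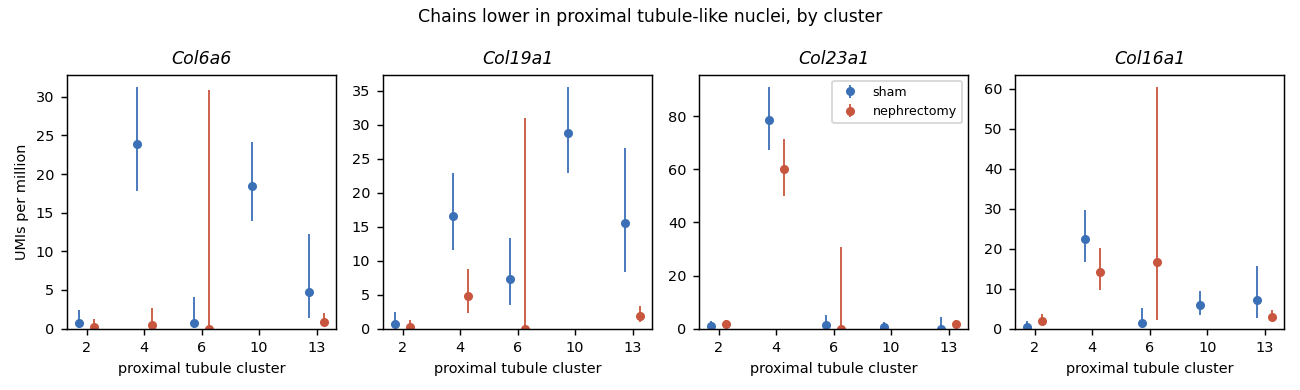
CPM of 4 lower members in the proximal tubule clusters, sham in blue and nephrectomy in red, with exact 95% Poisson intervals; values from fewer than 10 nuclei are not drawn. Col6a6 is at 23.9 in sham and 0.472 in nephrectomy in cluster 4.

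Genes that make, modify, bind or cut collagen were followed in 5 lists, to be read against the 9.51% of all genes that were higher and the 10.7% that were lower over the whole libraries. Over the whole libraries, 3 of 17 measured genes of hydroxylation, glycosylation and folding were lower and 0 higher, with a median log2 ratio of -0.20; P4ha2, a prolyl hydroxylase subunit, had a ratio of 0.556 and Ppib, a proline isomerase, of 0.644, while Colgalt2 and Colgalt1, which add galactose, were at 1.37 and 1.30. In fibroblast-like nuclei 5 of 12 were lower, against 15.6% of all genes in the class, and 1 was higher, against 13.6%. Of those 5, only 2 had an interval that leaves out 1. Of 13 secretion and propeptide genes 1 was higher, Bmp1, which removes the C-propeptide, at 1.68 (interval 1.27 to 2.24), and none was lower. Of 7 crosslinking genes 2 were higher, Pxdn, which crosslinks type IV collagen, at 1.62 and Loxl3, a lysyl oxidase, at 1.51 with an interval that spans 1.

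Of 11 measured collagen receptors, 2 were higher, Itga11 and Adgrg6, both at 1.59, with an interval for Itga11 that starts at 1.00, and Itga10 was lower at 0.527. In fibroblast-like nuclei Ddr2, a receptor kinase for fibrillar collagen, had 46 and 125 UMIs and a ratio of 1.99 (interval 1.41 to 2.85), and Mrc2, which takes up collagen fragments, had 164 and 129 UMIs and a ratio of 0.576. Of 10 collagenolytic enzymes and inhibitors, 3 were higher and 2 lower. Mmp14, a membrane-bound collagenase, had 43 and 124 UMIs and a ratio of 2.18 (interval 1.53 to 3.16). Timp3, a matrix-bound inhibitor, had 21367 and 17181 UMIs and a ratio of 0.609, and Mmp15 was at 0.470.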

How the data were processed

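The authors deposited counts of UMIs per gene and barcode for 1 sham and 1 nephrectomy library, made with Cell Ranger on mm10; the submitters' processing notes give version 7.1.0 and the file headers 7.0.1. Whether introns were counted, and whether by strand, is not given in the sources used here. The 13 members that overlap a gene on the other strand may share its reads.

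A barcode needed 200 genes or more and no more than 10% of its UMIs from mitochondrial genes; 109 sham and 112 nephrectomy barcodes failed. Scrublet called 0 and 1 doublets, so the top 3% of scores in each library and 3 clusters with at least 20% such nuclei were removed instead (142 and 141 nuclei). Clustering used scanpy 1.11.5 with 2000 variable genes, 30 components, 15 neighbours and Leiden resolution 1, with collagen and pathway genes left out. A name needed at least 3 markers.

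Several rules were set or changed with results in view. The set of members was proposed, and the gene lists chosen, with earlier results of these data known; the symbol rule itself uses no measured value. The doublet rule, the naming of clusters by fold over the median cluster and the splitting of mixed clusters were revised after the clusters were seen. The smallest part split off a cluster was raised from 20 to 30 nuclei after the collagen ratios had been seen, because it had set apart a group with 1 sham nucleus. This moved the pairs counted as higher from 18 to 19 and left 1 cluster split in place of 2. The first rule is kept as an added alternative.

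Named members are those past 1.5-fold with an interval that leaves out 1, or in their highest class, with others for their class of chain; pathway genes are mainly the 2 highest and lowest ratios of each list. Ratios of CPM carry exact conditional binomial intervals, levels exact Poisson and shares exact Clopper-Pearson intervals. The ratio code was tested on simulated data. Factors for one alternative came from edgeR 4.0.16. Positions are from GENCODE M21.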

Additional observations from a re-analysis of the deposited data

Results flagged for a closer look

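Col4a1 moved in opposite directions in 2 cell classes. Its ratio of nephrectomy to sham was 1.60 in thick ascending limb-like nuclei and 0.592 in intercalated-like nuclei, with intervals on either side of 1. The difference between the classes was not tested. The minimum of 30 nuclei for a split part was chosen after the ratios had been seen: with the first minimum of 20 nuclei the thick ascending limb ratio was 1.28, under 1.5-fold. With no cluster split it was 1.60. It was 1.17 at Leiden resolution 2, 1.22 with doublets kept and 0.785 in thinned nuclei. The intercalated ratio lay inside 1.5-fold with equal weight per nucleus. In thinned intercalated-like nuclei Col4a1 was at 138 CPM in sham and 55.6 CPM in nephrectomy (9 and 5 UMIs). In thinned nuclei both classes thus lay below 1, and the directions were not opposite.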

How the results depend on the processing

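No paired analysis was possible because each group has 1 library. Another 4 alternatives were added after seeing the data: naming without the depth limit, low-depth cluster 3 counted as fibroblast-like, splitting at parts of 20 nuclei (18 pairs higher, 12 lower) and no splitting (19 and 12). Over all nuclei, the 3 members higher became 9 with equal weight per nucleus, 8 with thinning, 6 with no minimum count and 0 with doublets kept; the 6 lower became 3 with equal weight and 1 with thinning. The 19 pairs higher became 10 with thinning and 60 with no minimum; the 12 lower became 4, 98, 20 with doublets kept and 7 without each gene's top nucleus. In fibroblast-like nuclei the 4 higher became 8 with no minimum, 12 at resolution 0.5 and 13 with either treatment of the low-depth cluster. In proximal tubule-like nuclei the 6 lower became 3 with equal weight, 2 with thinning and 13 with no minimum. The shares of all genes called under these alternatives are not given here, so these counts have no background beside them. Of 271 values for 30 named ratios, 238 stayed within the interval, 19 left it in the same direction and 14 reversed. With thinning these reversed: Col16a1 (1.12) and Col25a1 (0.908) over all nuclei, Col4a1 (0.785) and Col4a2 (0.826) in thick ascending limb, Col4a6 (0.894) in distal tubule, Col13a1 (0.890) in endothelial, Col5a2 (0.885) in fibroblast-like and Col4a2 (0.722) in intercalated nuclei. With doublets kept, Col25a1 over all nuclei (0.995) and Col13a1 in endothelial nuclei (0.904) reversed. Col4a6 in distal tubule was 0.366 at resolutions 0.5 and 2. Col8a1 in leukocyte-like nuclei was 1.25 with equal weight and 1.41 without the top nucleus. The cause was not tested; thinning leaves few UMIs.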

Other observations

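The remaining 3 named classes had too few nuclei for comparison, and their counts are given as values. Pericyte, smooth muscle or mesangial-like nuclei (27 sham, 21 nephrectomy) held 16 and 50 UMIs of Col19a1, of which 19 of the 50 lay in 1 nucleus; in nephrectomy this was 65.8% of all Col19a1 UMIs. The same nuclei held 51 and 24 UMIs of Col4a1 and 59 and 21 of Col4a2. Thin limb-like nuclei (26 and 18) held 35 and 60 UMIs of Col4a6 (266 and 498 CPM), above the level of that gene in each of the 9 compared classes. Their Col4a5 level, 523 and 714 CPM, lay below that of podocyte-like nuclei in sham (637 CPM) and above it in nephrectomy (545 CPM). Parietal epithelial or injured proximal tubule-like nuclei were 15 in sham and 67 in nephrectomy, and held 44 and 159 UMIs of Col18a1 (512 and 246 CPM). They also held 10 and 61 UMIs of Col4a6 (116 and 94.4 CPM).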
